A study of Mus musculus with 2 samples.

Results

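The genes described here encode the enzymes and the carrier that supply acetyl-CoA outside the tricarboxylic acid (TCA) cycle: Acly, Slc25a1, Acss1, Acss2, Acat1 and Acat2. The 6 were chosen by name, and 5 of them had a row in the count tables of both plates, among 21216 gene identifiers in all; Acss1 is not analysed here. Expression was measured in single mouse muscle stem cells, the resident stem cells of skeletal muscle, sorted by FACS into 384-well plates and read with a modified CEL-Seq2 protocol, which tags the polyadenylated end of each RNA with a well barcode and a random molecular tag (UMI). On plate 1 were 102 freshly isolated cells, named quiescent in the labels, and 113 kept cells of the high glucose condition (25 mM). Plate 2 carried the low glucose condition (5 mM, 120 cells) and the galactose condition (10 mM, 121 cells). Culture lasted 96 h in DMEM with 1 mM pyruvate, fetal bovine and horse serum, chick embryo extract, bFGF and antibiotics, so the cultured groups differed from each other in the sugar and from the freshly isolated cells in the whole culture. The labels name no strain, age, sex or number of animals.

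Acetyl-CoA is the donor of acetyl groups for histones and the building block of fatty acids and sterols. It is made inside mitochondria and does not cross their inner membrane, so carbon leaves as citrate through the carrier Slc25a1 and is cleaved in the cytosol and nucleus by ATP citrate lyase, Acly. Acss2 makes acetyl-CoA from acetate in the cytosol and nucleus, and Acss1 does so in mitochondria. Acat1 is the mitochondrial thiolase that releases acetyl-CoA from ketone bodies and isoleucine, and Acat2 is the cytosolic thiolase that joins acetyl-CoA units at the first step of sterol synthesis.

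Counts of all wells of a condition were summed into a pool and scaled by the pool's total to CPM, the usual unit of relative abundance. The pools of plate 1 held 284109 (quiescent) and 887611 (high glucose) gene counts and those of plate 2 1734279 (low glucose) and 2035682 (galactose), and 1 count was worth 3.52, 1.13, 0.577 and 0.491 CPM in the same order. With 1 library for each condition, no test between conditions was run, since cells of 1 library do not replicate it; intervals are exact 95% intervals that cover counting error only. Each condition filled 6 plate rows of its own. Plate rows are parts of the same library and show only how even it was. All 10 markers of muscle stem cells and myoblasts had counts in every condition, with a summed level of 6167 CPM in quiescent cells and 1946 to 2097 CPM in the cultured cells. Markers of other cell types, except the immune list, were also highest in quiescent cells: the fibro-adipogenic list summed to 1126 CPM there (4 of 7 markers looked up, all with counts) and to 31.4 to 141 CPM in culture, with Dcn at 0 in galactose, and the smooth muscle and pericyte list to 493 CPM (5 of 6 with counts, Kcnj8 at 0) and 60.9 to 189 CPM. The endothelial list stood at 81.0 CPM (5 of 6, Cldn5 at 0) against 4.42 to 41.7 CPM. On plate 1, 4 fibro-adipogenic, 6 endothelial and 6 smooth muscle and pericyte markers had a row. On plate 2 these numbers were 3, 3 and 5, so sums and numbers of wells do not rest on the same markers on both plates. The glial, mature myofibre and immune lists stood at 17.6, 31.7 and 3.52 CPM in quiescent cells and reached at most 6.76, 22.5 and 8.84 CPM in culture, each resting on 1 or 2 markers. The part of these cells in the ratios between quiescent and cultured cells was not tested beyond leaving out such wells. Wells with at least 2 markers of the same other type numbered 44 (quiescent) and 19 (high glucose) on plate 1, and 6 (low glucose) and 12 (galactose) on plate 2. The plates shared 200 of 257 cell barcodes, which mark wells and not cells.

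The starts of the genes of the citrate route and of the sterol thiolase are shown because these genes differed in their CPM pattern across the 4 conditions. Whether the sequences bear on these patterns was not tested. Each line gives the 120 bases before the RefSeq transcript start (build GRCm38.p6), 5′ to 3′ on the gene's strand, with GC boxes (GGGCGG or CCGCCC) and CCAAT boxes (CCAAT or ATTGG) in capitals.
Acly, chr11:100528001-100528120, minus strand: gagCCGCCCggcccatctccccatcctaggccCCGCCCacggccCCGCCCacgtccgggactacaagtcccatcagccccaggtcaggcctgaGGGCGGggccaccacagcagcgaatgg
Slc25a1, chr16:17928220-17928339, minus strand: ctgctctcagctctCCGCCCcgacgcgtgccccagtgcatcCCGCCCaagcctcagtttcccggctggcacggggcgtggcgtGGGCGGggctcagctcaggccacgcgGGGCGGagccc
Acat2, chr17:12960726-12960845, minus strand: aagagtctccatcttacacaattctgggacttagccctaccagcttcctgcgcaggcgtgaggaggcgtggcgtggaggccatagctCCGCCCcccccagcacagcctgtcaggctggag
In the 250 bases before the start, Acly and Slc25a1 each held 4 GC boxes, Acss2 4 and Acat2 1. Of 32851 promoters of that length, 32.7% held at least 1. The share that held 4 was not computed. A CCAAT box was found in Slc25a1 and Acss2 (33.8% of promoters), and the E-box CACGTG in Slc25a1 (6.02%). A sterol regulatory element written as TCACNCCAC on either strand was found in none of the 4 genes, against 1.05% of promoters. These are matches of letters and not measured sites. Acat1 was not matched in the promoter table. GENCODE M21 (GRCm38) starts Acat2 slightly upstream of RefSeq, so the last bases of its line lie in an annotated transcript. In that annotation the protein-coding genes lie at chr11:100476353-100528000 (Acly, minus strand), chr16:17925223-17928219 (Slc25a1, minus), chr2:155517948-155585724 (Acss2, plus), chr9:53580522-53610382 (Acat1, minus) and chr17:12942890-12960747 (Acat2, minus).

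Acly, the lyase that turns citrate into acetyl-CoA, stood at the lowest level in quiescent cells. It had 10 counts in quiescent cells (35.2 CPM, 95% interval 16.9 to 64.7), 53 in high glucose (59.7 CPM, 44.7 to 78.1), 132 in low glucose (76.1 CPM, 63.7 to 90.3) and 163 in galactose (80.1 CPM, 68.3 to 93.4). The order was quiescent, high glucose, low glucose, galactose, and the intervals of each pair of neighbours overlapped. Plate rows ran from 17.5 to 51.4 CPM in quiescent cells and from 36.3 to 76.0 CPM in high glucose; all 6 high glucose rows lay above the quiescent median of 33.4 CPM, but the ranges overlapped. The ratio of high glucose to quiescent was 1.70 (0.854 to 3.74), an interval that holds 1. Without the wells that held markers of other cell types, the log2 ratio was 0.19 instead of 0.75. Relative to the ERCC spike-ins, synthetic RNAs that were counted beside the genes in each well, Acly stood at 0.691 counts per 1000 spike-in counts in quiescent cells and at 3.6, 3.83 and 4.15 in high glucose, low glucose and galactose. That is a ratio of 5.21 (2.62 to 11.5) within plate 1. The median cell gave 18.3 gene counts per spike-in count in quiescent cells and 57.0 in high glucose, so a gene that is flat or lower in CPM can be higher per spike-in count.

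Slc25a1, the mitochondrial citrate carrier that feeds Acly, had the opposite order on plate 1. It had 24 counts in quiescent cells (84.5 CPM, 54.1 to 126), 37 in high glucose (41.7 CPM, 29.4 to 57.5), 93 in low glucose (53.6 CPM, 43.3 to 65.7) and 136 in galactose (66.8 CPM, 56.1 to 79.0). The quiescent plate rows, at 68.5 to 111 CPM, all lay above the high glucose rows, at 35.1 to 53.9 CPM. Each quiescent row rested on only 3 to 5 counts. The share of all genes whose row ranges part in this comparison was not computed, so the separation is a description only. The ratio of high glucose to quiescent was 0.493 (0.287 to 0.862) in CPM. Per 1000 spike-in counts the carrier stood at 2.51 in high glucose and 1.66 in quiescent cells, which gives a ratio of 1.51 (0.882 to 2.65), so the direction depends on the scale. Among the cultured cells its level followed the order high glucose, low glucose, galactose, and neighbours in that order had overlapping intervals. Low glucose rows ran from 32.5 to 63.0 CPM and galactose rows from 45.3 to 89.5 CPM, with overlap.

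**Figure D1:**
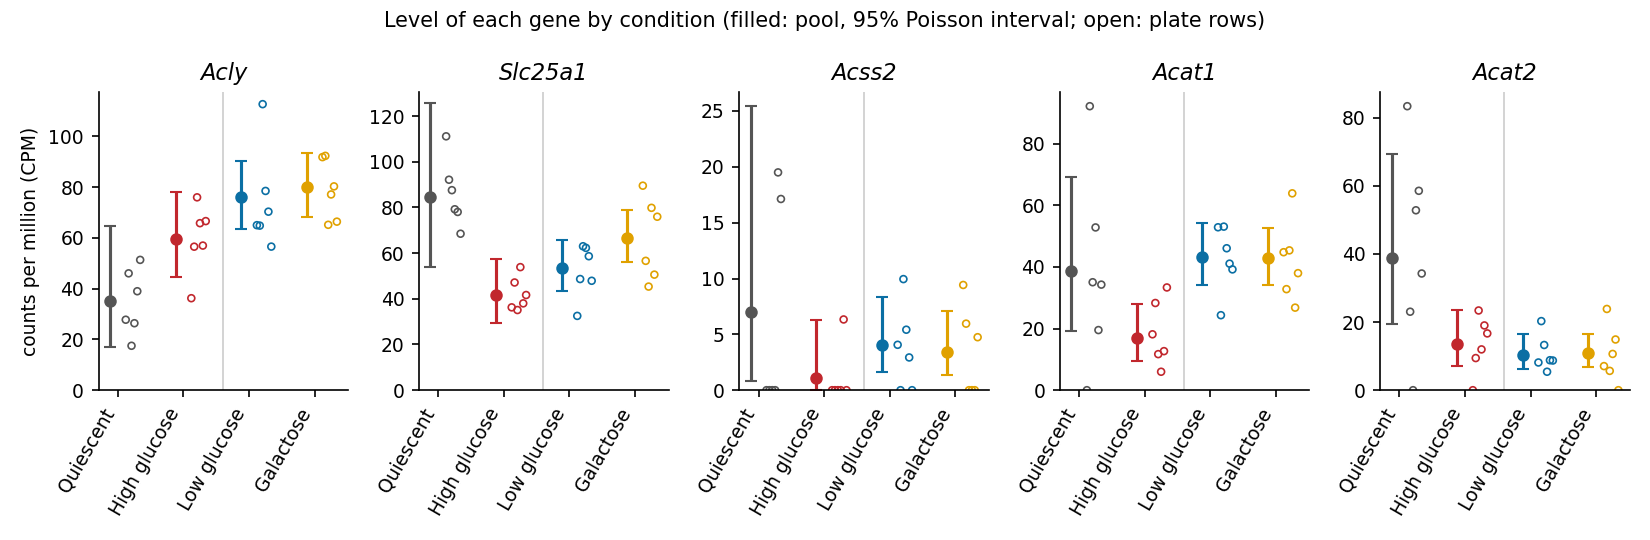
Level of each gene in CPM (vertical axis, a separate scale per gene) in the 4 conditions; filled points are pools with 95% Poisson intervals, open points are the 6 plate rows of each condition, and the grey line parts plate 1 from plate 2. Acly is lowest in quiescent cells at 35.2 CPM. Slc25a1 is highest there at 84.5 CPM, but lowest per 1000 spike-in counts, at 1.66. Acat1 is lowest in high glucose in CPM, at 16.9. Per 1000 spike-in counts Acat1 is lowest in quiescent cells, at 0.760 against 1.02 in high glucose.

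The balance between lyase and carrier needs no scaling, since both are counted in the same wells. Of the Acly and Slc25a1 counts together, Acly made up 10 of 34 in quiescent cells (29.4%, exact binomial interval 15.1 to 47.5%) and 53 of 90 in high glucose (58.9%, 48.0 to 69.2%). The 2 intervals did not overlap. In low glucose Acly made up 132 of 225 (58.7%, 51.9 to 65.2%) and in galactose 163 of 299 (54.5%, 48.7 to 60.3%). With all counts used, the share was thus of like size in the 3 cultured pools and lower in quiescent cells. With wells holding markers of other cell types left out, a setting added after the data were seen, the shares were 33.3% (14.6 to 57.0%) in quiescent cells and 60% (47.6 to 71.5%) in high glucose, and the intervals then overlapped.

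The thiolases Acat1 and Acat2 stood at equal counts in quiescent cells and apart on plate 2. Acat1 had 11 counts in quiescent cells (38.7 CPM, 19.3 to 69.3), 15 in high glucose (16.9 CPM, 9.46 to 27.9), 75 in low glucose (43.2 CPM, 34 to 54.2) and 87 in galactose (42.7 CPM, 34.2 to 52.7). High glucose was the low condition in CPM: its interval lay below those of low glucose and galactose, and it overlapped that of quiescent cells. Plate rows ran from 5.98 to 33.3 CPM in high glucose, from 24.3 to 53.1 CPM in low glucose and from 26.8 to 63.9 CPM in galactose, so the row ranges overlapped. The ratio was 2.56 (1.46 to 4.80) for low against high glucose and 2.53 (1.45 to 4.71) for galactose against high glucose. These comparisons share the high glucose wells and cross plates, so plate and medium cannot be told apart. Per spike-in count the ratios were 2.14 (1.22 to 4.01) and 2.18 (1.25 to 4.06). Within plate 2, galactose and low glucose had a ratio of 0.988 (0.717 to 1.36). Within plate 1, high glucose against quiescent gave 0.436 (0.187 to 1.05) in CPM and 1.34 (0.575 to 3.22) per spike-in count.

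Acat2 had 11 counts in quiescent cells (38.7 CPM, 19.3 to 69.3), 12 in high glucose (13.5 CPM, 6.99 to 23.6), 18 in low glucose (10.4 CPM, 6.15 to 16.4) and 22 in galactose (10.8 CPM, 6.77 to 16.4). Quiescent cells were highest in CPM and the 3 cultured pools were close to each other. The ratio of high glucose to quiescent was 0.349 (0.141 to 0.873). Per spike-in count it was 1.07 (0.433 to 2.68). In quiescent cells the 11 counts came from 8 cells, and 1 plate row had none. Acat1 made up 50% (28.2 to 71.8%) of the counts of both thiolases in quiescent cells and 55.6% (35.3 to 74.5%) in high glucose, whereas on plate 2 it made up 80.6% (71.1 to 88.1%) with low glucose and 79.8% (71.1 to 86.9%) with galactose. Each plate 1 interval overlapped the plate 2 intervals. Acat2 has a near copy, Acat3, whose transcripts aligned to those of Acat2 at 97.7% identity over 1477 bases, and how the authors counted reads that fit both is not stated in the labels. Acat3 was listed with 2 counts on plate 1 and 1 on plate 2, so Acat2 values are uncertain to the extent that shared reads were dropped or assigned to either copy. The gene that overlaps Acat3 on the opposite strand, the chaperonin subunit Tcp1, had 239 CPM in quiescent cells and 511 to 533 CPM in culture. No annotated gene overlapped Acat1, Acat2 or Slc25a1, and only a microRNA overlapped Acly.

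**Figure D2:**
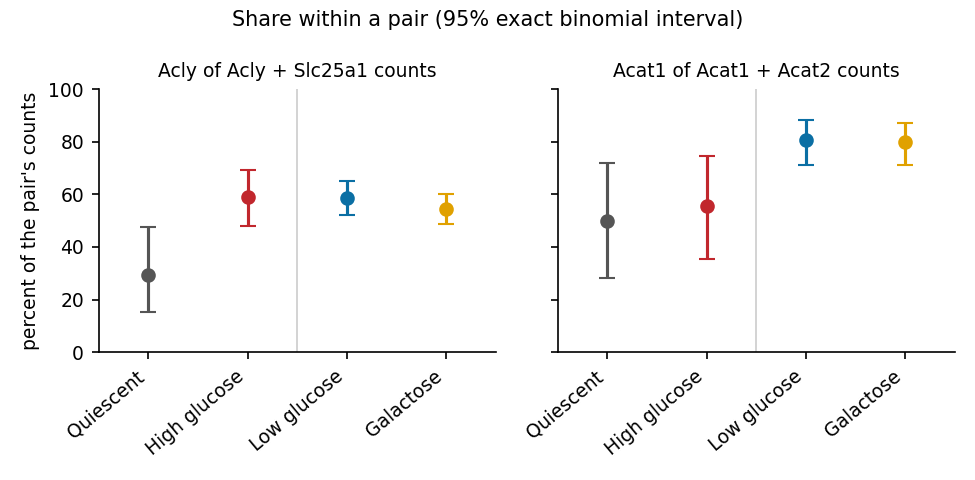
Percent of the counts of a pair that belong to its first gene (vertical axis, 0 to 100%) by condition: Acly of Acly and Slc25a1 at left, Acat1 of Acat1 and Acat2 at right; bars are exact binomial 95% intervals and the grey line parts the plates. The Acly share is 29.4% in quiescent cells and 54.5% to 58.9% in culture, and the Acat1 share is 50% to 55.6% on plate 1 and 79.8% to 80.6% on plate 2.

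Acss2, the acetate-using synthetase, was close to the limit of what these libraries can show. It had 2 counts in quiescent cells (7.04 CPM, 0.853 to 25.4), 1 in high glucose (1.13 CPM, 0.0285 to 6.28), 7 in low glucose (4.04 CPM, 1.62 to 8.32) and 7 in galactose (3.44 CPM, 1.38 to 7.08). All intervals overlapped, and no cell had more than 1 count. A limit of 3 counts corresponds to 10.6 and 3.38 CPM in the quiescent and high glucose pools. In the pools of plate 2 it corresponds to 1.73 and 1.47 CPM. The ratio of high glucose to quiescent was 0.160 (0.00271 to 3.07), so differences of Acss2 within that wide interval were not detectable on plate 1. The annotated Acss2 gene overlaps several genes on the opposite strand, among them Gss, which had 2, 28, 39 and 36 counts in the same order; whether reads were counted by strand is not stated in the labels.

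Shares of cells with a count followed the depth of the wells. The median cell held 2536 gene counts if quiescent and 6747 if grown in high glucose, and the medians of plate 2 were 13371 with low glucose and 14496 with galactose. Acly had a count in 9.80% of quiescent cells (4.80 to 17.3%), 31.0% of high glucose cells (22.6 to 40.4%), 55.8% of low glucose cells (46.5 to 64.9%) and 64.5% of galactose cells (55.2 to 73.0%). With each cell thinned to 1000 counts the shares were 3.92%, 6.25%, 10.8% and 3.31%, with intervals that all overlapped. Slc25a1 had a count in 19.6%, 24.8%, 45.8% and 59.5% of cells, and in 7.84%, 2.68%, 2.5% and 4.96% after thinning. Acat1 had one in 10.8%, 11.5%, 41.7% and 42.1%, and in 2.94%, 1.79%, 4.17% and 8.26% after thinning. Acat2 had one in 7.84%, 9.73%, 14.2% and 15.7%, and in 1.96%, 0.893%, 1.67% and 1.65% after thinning. Each thinned share rests on 10 cells or fewer, apart from Acly in low glucose with 13, so no order of the conditions is read from them. Thinning left out 1 high glucose cell. No cell type that lacks these genes was measured, so the share that free RNA would give was not measured.

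**Figure D3:**
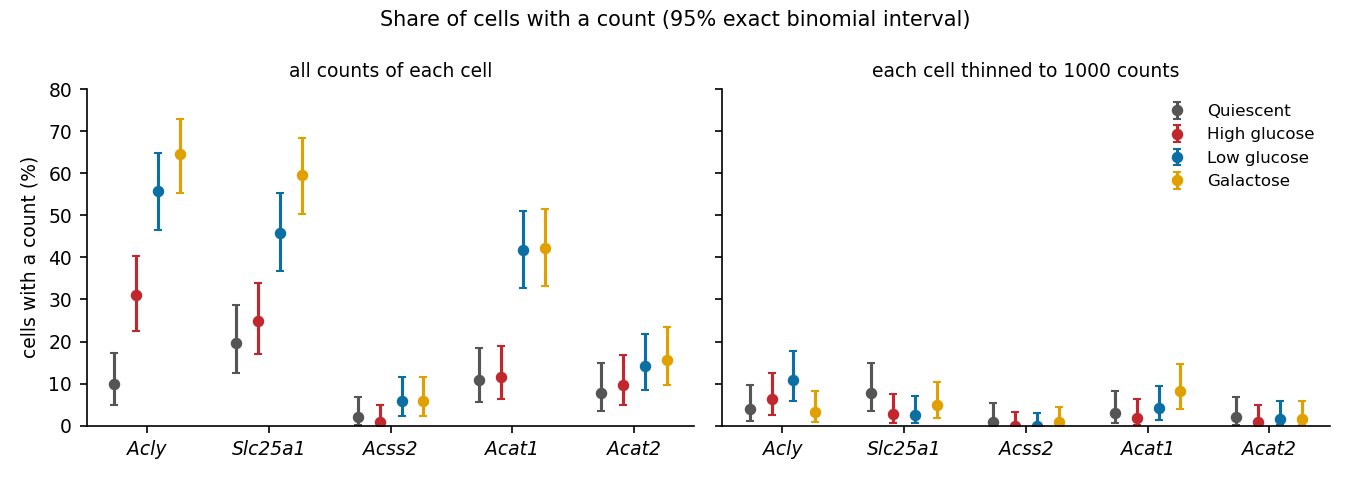
Percent of cells with a count (vertical axis) of each gene in the 4 conditions, from all counts of each cell at left and after thinning each cell to 1000 counts at right; bars are exact binomial 95% intervals. The spread between conditions at left, such as 9.80% to 64.5% for Acly, shrinks to 3.31% to 10.8% at equal depth.

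Summed over the 5 measured genes, the level was 204 CPM in quiescent cells (155 to 264), 133 in high glucose (110 to 159), 187 in low glucose (168 to 209) and 204 in galactose (185 to 224). High glucose was lowest in CPM, with an interval below those of the plate 2 pools, a comparison that crosses plates. Per 1000 spike-in counts quiescent cells were lowest, at 4.01, against 8.01 with high glucose, 9.44 with low glucose and 10.6 with galactose, and the ratio of low to high glucose was 1.18 (0.952 to 1.47). The ratio of high glucose to quiescent was 0.651 (0.472 to 0.908) in CPM and 2.0 (1.45 to 2.79) per spike-in count. Galactose against low glucose gave 1.09 (0.939 to 1.26). At least 1 of the 5 genes had a count in 41.2% and 54.9% of the quiescent and high glucose cells of plate 1 and in 82.5% and 86.8% of the low glucose and galactose cells of plate 2, but in 16.7%, 11.6%, 19.2% and 18.2% after thinning. Acly and Slc25a1 were counted in the same cell in 2 quiescent, 9 high glucose, 35 low glucose and 51 galactose cells. After thinning to 1000 counts both were counted in 1 quiescent cell and in no cell of the cultured conditions. The highest count in any cell was 10, for Acly in galactose.

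The first question the design puts is how culture in high glucose differs from the freshly isolated state, within plate 1. A gene was called higher or lower when its pool ratio was at least 1.5 either way and the 2 pools averaged at least 10 CPM, a rule of size without a test. Of the 4 genes above that minimum, 1 was higher in high glucose (Acly) and 3 were lower (Slc25a1, Acat1 and Acat2). Over all 8882 genes above the minimum, 40.9% were higher and 20.9% were lower. The median log2 ratio of the 4 genes was -1.08, and that of all genes was 0.34. The intervals of Slc25a1 and Acat2 lay below 1, and those of Acly and Acat1 held 1. With TMM factors, which moved the median of all genes by -0.23, 54.0% of the called genes were higher, against 66.2% with total counts; Acly then had a ratio of 1.43, and Slc25a1, Acat1 and Acat2 had 0.417, 0.369 and 0.295. Median-of-ratios factors moved the median by -0.28 and gave 51.1%. Scaling by spike-ins moved it by 1.56 and gave 96.4%.

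The second question is whether galactose in place of glucose changed these genes, within plate 2. None of the 4 genes was called higher or lower, where 3.23% of 8689 genes were higher and 2.65% were lower. The median log2 ratio of the 4 was 0.06, and that of all genes was 0.01. The ratios were 1.05 for Acly (0.831 to 1.33), 1.25 for Slc25a1 (0.95 to 1.64), 0.988 for Acat1 (0.717 to 1.36) and 1.04 for Acat2 (0.533 to 2.06). A ratio of 1.5 lay outside the intervals of Acly and Acat1 and inside those of Slc25a1 and Acat2. For Acat2, with 22 against 18 counts, the interval also holds differences of more than 1.5-fold in either direction.

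Across plates, low glucose against high glucose called 1 of 4 genes higher (Acat1) and none lower, where 12% of 8852 genes were higher and 15.9% were lower. Galactose against high glucose called 2 of 4 higher (Acat1 and Slc25a1) and none lower, where 13.3% of 8894 genes were higher and 16.6% were lower. Slc25a1 had a ratio of 1.6 (1.11 to 2.37) in galactose and 1.29 (0.870 to 1.94) in low glucose, both against high glucose; per spike-in count these were 1.38 (0.954 to 2.04) and 1.08 (0.728 to 1.62). Acly had 1.34 (0.978 to 1.86) and 1.27 (0.920 to 1.79). Acat2 had 0.799 (0.379 to 1.77) and 0.768 (0.350 to 1.75). TMM factors moved the median of all genes by 0.12 for low glucose and 0.13 for galactose, and the share of called genes that were higher from 43.0% to 59.8% and from 44.5% to 61.5%. Spike-in scaling moved the medians by -0.25 and -0.21 and the shares to 14.8% and 21.3%.

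**Figure D4:**
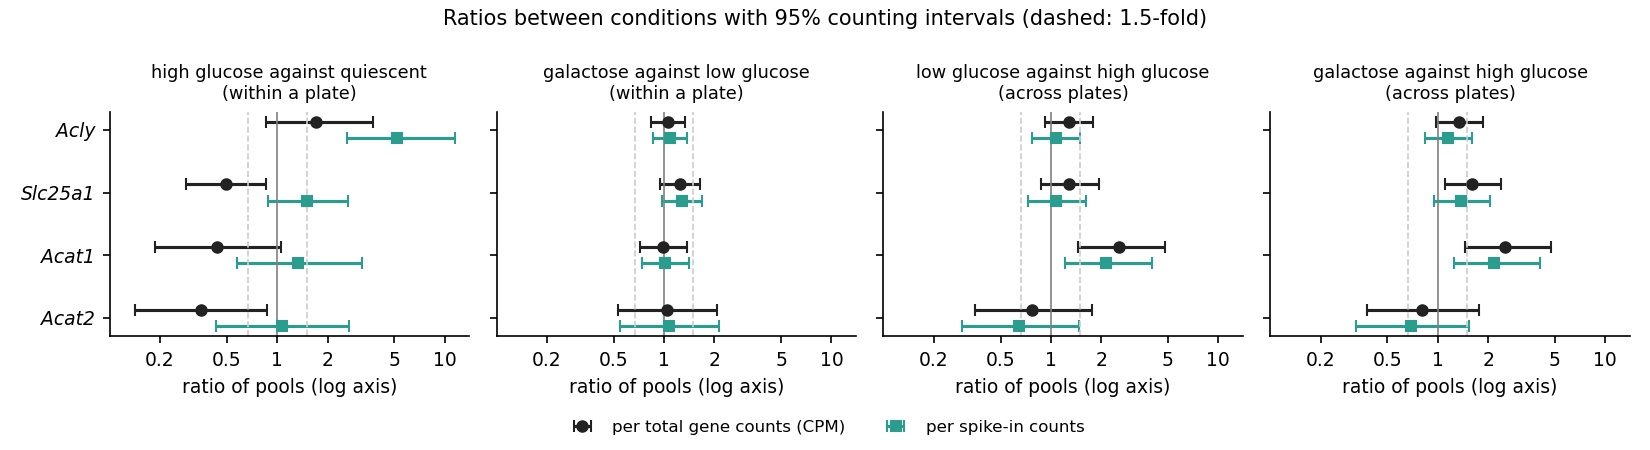
Ratio between pools (horizontal log axis) of the 4 genes above 10 CPM in the 4 comparisons; circles are ratios of CPM, squares are ratios per spike-in count, bars are 95% counting intervals and dashed lines mark 1.5-fold either way. In the comparison with quiescent cells the scales differ most, as for Slc25a1 at 0.493 in CPM and 1.51 per spike-in count, and within plate 2 all points lie between 0.988 and 1.28.

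Genes on either side of acetyl-CoA give the context. For high glucose against quiescent cells, the counts of list genes below are in CPM and stand beside 40.9% of all genes higher, 20.9% lower and an all-gene median of 0.34. The scale decides most directions in that comparison: per spike-in count, a scale added for the lists after the data were seen, 86.8% of the 8882 genes were at least 1.5-fold higher and 4.8% lower, and none of the list genes above the minimum was called lower. In the route from pyruvate to acetyl-CoA inside mitochondria, 2 of 10 measured genes were higher in high glucose than in quiescent cells and 2 were lower, shares of the list below and close to those of all genes, and per spike-in count 9 of 10 were higher. Dlat, a core subunit of pyruvate dehydrogenase, had 95.8 against 38.7 CPM (ratio 2.47, 1.31 to 5.14). Pdk4, a kinase that inactivates the complex, had 159 against 296 CPM (0.537, 0.407 to 0.713), and Pdp1, a phosphatase that activates it, 21.4 against 66.9 CPM (0.320, 0.160 to 0.639). Per spike-in count Pdk4 turned to 1.65 (1.25 to 2.19) and Pdp1 was at 0.982 (0.492 to 1.96). In galactose against low glucose 2 of 9 were lower and none was higher, beside 2.65% lower and 3.23% higher over all 8689 genes. The same shares stand beside the galactose calls of the lists below. Both lower genes were phosphatases of the complex, with few counts. Pdp1 had 19 against 34 counts, or 9.33 against 19.6 CPM (0.476, 0.257 to 0.859). Pdp2 had 21 against 35 counts, or 10.3 against 20.2 CPM (0.511, 0.283 to 0.903). The catalytic subunit Pdha1 stood at 116, 141, 205 and 211 CPM in quiescent, high glucose, low glucose and galactose cells.

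Of 6 measured genes for citrate and the return of its carbon from the cytosol, 3 were higher in high glucose than in quiescent cells and none was lower, with a median log2 ratio of 0.60; per spike-in count all 6 were higher. The intervals of 2 of the 3, Aco1 and Me1, held 1 in CPM. Mdh1, the cytosolic malate dehydrogenase that uses the oxaloacetate released by Acly, had 76.6 against 31.7 CPM (2.42, 1.20 to 5.51). Me1, the cytosolic malic enzyme, had 1.76 (0.889 to 3.87), and the mitochondrial Mdh2 570 against 429 CPM (1.33, 1.09 to 1.63). In galactose against low glucose none of 7 was called. Among other thiolases and ketone body enzymes, 2 of 4 were higher in high glucose and 1 was lower (Acaa2), while per spike-in count all 4 were higher. The list also held Hadha, the subunit of the trifunctional protein of fatty acid oxidation that pairs with the thiolase subunit and is no thiolase itself, at 1.69 (0.963 to 3.15). The CPM intervals of Hadha and Acaa2 held 1. In galactose 1 of 4, Acaa2, was lower (0.653, 0.362 to 1.16), and per spike-in count it was at 0.673 (0.373 to 1.20), short of the rule. Of 5 measured genes for acetyl-CoA carriers, hydrolases and acetate handling, Aldh2, the mitochondrial aldehyde dehydrogenase that makes acetate, had the lower level in high glucose, with 53.0 CPM against 232 CPM (0.228, 0.153 to 0.336), and none was called in galactose. Per spike-in count Aldh2 was at 0.699 (0.471 to 1.03), and the other 4 were higher. In high glucose against quiescent cells, Adh5, a dehydrogenase for alcohols and formaldehyde adducts, had 1.14 (0.755 to 1.77) and Acot9, a mitochondrial acyl-CoA thioesterase, 1.01 (0.666 to 1.58).

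Genes that use cytosolic acetyl-CoA did not share 1 direction in CPM. Of 12 measured, 2 were higher in high glucose than in quiescent cells and 3 were lower, with a median log2 ratio of 0.21. Fasn, fatty acid synthase, had 86.7 against 77.4 CPM (1.12, 0.690 to 1.89), Hmgcs1, the step of sterol synthesis after Acat2, 65.3 against 45.8 CPM (1.43, 0.773 to 2.84), and Scd1, a fatty acid desaturase, 28.2 against 84.5 CPM (0.333, 0.183 to 0.610). Acaca, which carboxylates acetyl-CoA, had 13 against 7 counts (0.594, 0.220 to 1.76). Per spike-in count 10 of the 12 were higher, with Fasn at 3.44 (2.12 to 5.80), Hmgcs1 at 4.38 (2.37 to 8.72), Acaca at 1.82 (0.676 to 5.40) and Scd1 at 1.02 (0.561 to 1.87). In galactose 1 of 12, Idi1 of sterol synthesis, was higher at 17.2 against 9.23 CPM (1.86, 1.00 to 3.61). Of the SREBP pathway, whose transcription factors control several of these genes, 2 of 4 measured genes were lower in high glucose, among them Mlxip, a glucose-responsive transcription factor (0.507, 0.296 to 0.883; 1.55, 0.909 to 2.71, per spike-in count), and none of 5 was called in galactose. Mbtps1, a protease that activates SREBPs, had 1.14 (0.646 to 2.13) in high glucose, and Insig1, which holds them back, had 0.960 (0.393 to 2.67) there and 1.39 (0.841 to 2.33) in galactose. Srebf1 had at most 2 counts in any pool, too few for a ratio. Srebf2 had 3 counts in high glucose and none in quiescent cells; it is not analysed here on plate 2.

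The list of histone acetyltransferases, which consume acetyl-CoA, also held the N-terminal protein acetyltransferases Naa10 and Naa50. Of its 12 measured genes, 6 were higher in high glucose, among them Naa10, and 2 were lower. The median log2 ratio was 0.50, and per spike-in count 11 were higher. Ncoa1, a nuclear receptor coactivator, had 48.4 against 162 CPM (0.299, 0.193 to 0.464), or 0.918 (0.591 to 1.42) per spike-in count. Crebbp had 276 against 331 CPM (0.834, 0.655 to 1.07), which turned to 2.56 (2.01 to 3.28) per spike-in count, and the N-terminal acetyltransferase Naa50 had 344 against 292 CPM (1.18, 0.920 to 1.52). In galactose 1 of 12, Kat5, was higher at 51.1 against 31.1 CPM (1.64, 1.17 to 2.32). Of the deacetylases and sirtuins, which remove the acetyl groups, 1 of 8 was higher in high glucose and 4 were lower, with a median of -0.39, but per spike-in count 7 of the 8 were higher and none was lower; none of 7 was called in galactose. Sirt1, a deacetylase that acts on Acss2, had 125 against 144 CPM (0.867, 0.601 to 1.27), and Hdac6 9.01 against 35.2 CPM (0.256, 0.0878 to 0.721). Hdac2, a class I deacetylase, had 253 against 264 CPM (0.960, 0.736 to 1.26). Per spike-in count Sirt1 was at 2.66 (1.84 to 3.90), Hdac2 at 2.95 (2.26 to 3.88) and Hdac6 at 0.786 (0.269 to 2.21).

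**Figure D5:**
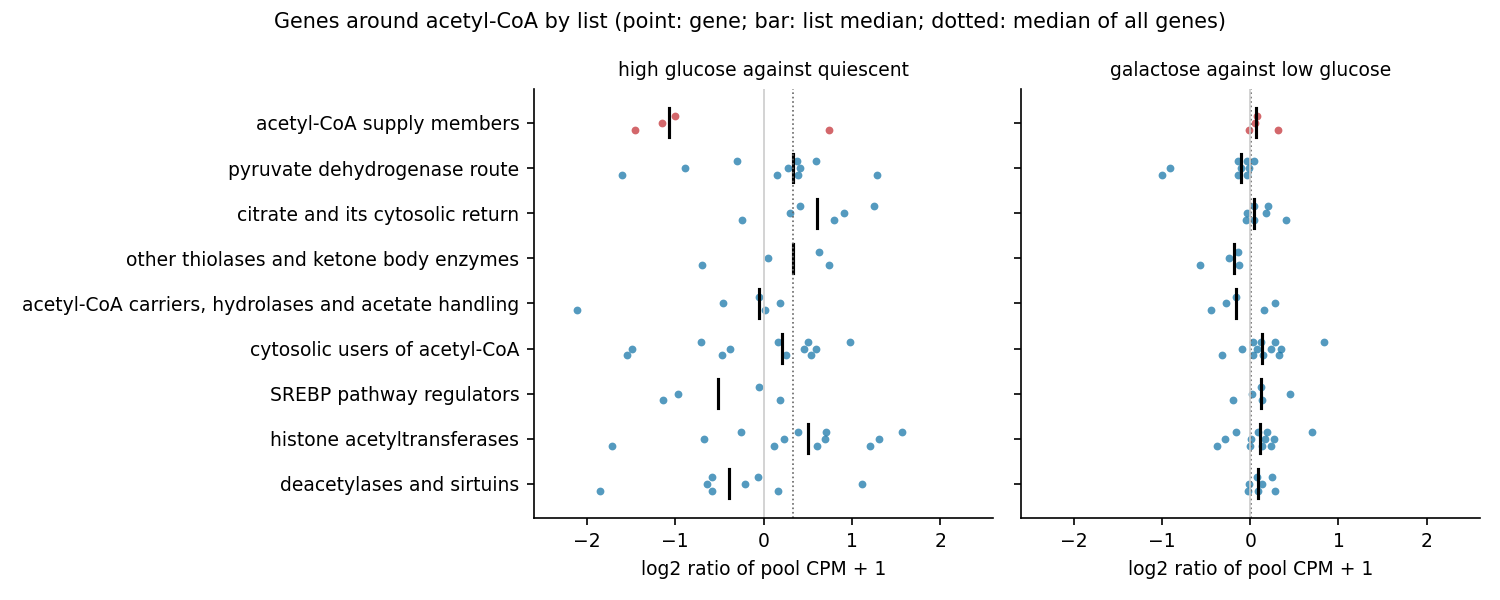
Log2 ratio of pool CPM plus 1 (horizontal axis) of every gene above 10 CPM in each list, for high glucose against quiescent cells at left and galactose against low glucose at right; points are genes, black bars are list medians and the dotted line is the median of all genes. At left the acetyl-CoA supply genes have a median of -1.08 with Acly alone above 0 (on the CPM scale; per spike-in count all 4 lie above 0), and at right they lie near 0 with a median of 0.06.

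The genes most like each well-counted member were sought over the 24 plate rows by the Pearson correlation of log2(CPM + 10), among genes with a mean of at least 50 CPM. The rows share 2 plates and 4 conditions, and quiescent rows hold few counts, so the values describe likeness of pattern only. Closest to Acly were Psmb7, a proteasome subunit (r = 0.90), Cacybp (0.89) and Tbcel (0.87), all lowest in quiescent cells. Closest to Slc25a1 were Efhd2 (0.84), the predicted gene Gm10925 (0.82) and Fosl1, an AP-1 transcription factor (0.80), all highest in quiescent cells. Closest to Acat1 were Eny2 (0.83), Whrn (0.78) and Arfip1 (0.78), all lowest in high glucose. Between the members themselves, the correlation over rows was -0.34 for Acly and Slc25a1, 0.24 for Acly and Acat1 and 0.12 for Acat1 and Slc25a1.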

How the data were processed

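The authors deposited raw counts per gene and well; they hold only whole numbers, up to 1564 for a gene in a well. Per the labels, libraries were made in the well with a modified CEL-Seq2 protocol; the aligner, build, annotation and collapsing by UMI are not stated in the labels. EdgeR appears, with no version, in the submitters' processing notes. The condition of each of 457 wells came from the deposited well sheet. Wells with at least 500 gene counts and 250 genes were kept, which dropped 1 high glucose well with 8 counts. No doublet caller was run. Symbols were matched by Ensembl ID to GENCODE M21 (99.6% of identifiers). Spike-ins were left out of totals.

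Pools were scaled by total gene counts. Ratios carry exact conditional (Clopper-Pearson) intervals, levels exact Poisson intervals and shares exact binomial ones. Log2 ratios used a pseudocount of 1 CPM. Genes named from the lists were the 2 with the most counts and, in each comparison within a plate, the one with the interval bound farthest from 1; others named beside a count of calls were chosen after their values were seen. The values of some genes under this rule are not reported here. The members, the lists and the rules were chosen with earlier results of these data known. Near copies were sought with BLAST 2.17.0 among GENCODE transcripts (at least 90% identity over 300 bases), and promoters came from RefSeq. Alternatives were TMM factors (edgeR 4.0.16), median-of-ratios factors (DESeq2 1.42.0), spike-in scaling, other minimums and weights, tag correction, thinning and leaving out wells or plate rows. Intervals and the rule of size were tried only on simulated Poisson counts, the model that the intervals assume. Spread between cells or libraries was not simulated, nor were changes near 1.5-fold.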

Additional observations from a re-analysis of the deposited data

How the results depend on the processing

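No paired analysis was possible because each condition had 1 library and no result came from a test. For high glucose against quiescent cells, the median log2 ratio of the members, -1.08, reversed to 0.49 with spike-in scaling, as did Acat1 (0.40), Acat2 (0.094) and Slc25a1 (0.59). The number at least 1.5-fold higher, 1, became 0 with TMM factors, with median-of-ratios factors, with at least 2000 counts per well, with a mean CPM of at least 50 and without wells holding markers of another cell type, and 2 with spike-ins. The number lower, 3, became 0 with spike-ins and 1 at a mean CPM of at least 50. For galactose against low glucose, thinning to 1000 counts, which leaves few counts per gene, gave 2 higher and 1 lower in place of none. For low against high glucose, 1 higher became 3 with thinning, 2 without a minimum CPM and 0 at 50 CPM, and none lower became 1 with spike-ins. For galactose against high glucose, 2 higher became 1 at 50 CPM and with spike-ins, and none lower became 1 with thinning and with equal weight per cell. Apart from thinning and the CPM minimum, whose construction changes which counts or genes enter, the cause was not tested.

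Leaving out each plate row in turn, the medians ran from -1.19 to -0.86 for high glucose against quiescent, 0.02 to 0.18 for galactose against low glucose, 0.25 to 0.42 for low against high glucose and 0.45 to 0.62 for galactose against high glucose. The numbers higher ran from 1 to 2 for galactose against high glucose, reaching 1 without row G of plate 2, and the numbers lower ran from 0 to 1 in both comparisons across plates, reaching 1 without row G of plate 1 in either, row B of plate 2 for low glucose or row H of plate 2 for galactose. All other numbers stayed as given.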

Other observations

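Within a condition, levels were also taken separately in the wells at or below the median depth and in those above it. In high glucose Slc25a1 stood at 24.3 CPM (8.92 to 52.9) in the shallower wells and 48.4 CPM (32.9 to 68.7) in the deeper ones, and in galactose at 67.3 and 66.6 CPM. Acly stood at 53.7 CPM (34.8 to 79.3) and 84.3 CPM (69.1 to 102) in low glucose, and at 69.1 and 84.3 CPM in galactose. Intervals of shallower and deeper wells overlapped in each of these cases.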
